A study of Bos taurus with 2 samples.

Results

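Cluster 14 is a small group of shallow cells in cultured bovine satellite cells in which S100A4 mRNA was higher than in any other cluster of the study. Its members are the cells that the study placed in its cluster 14 of 15, recovered from the deposited cluster averages: each average, multiplied by the cluster's UMI total and divided by 14889, the median UMI count of all cells, gave a whole UMI sum, and the cells were then given to clusters until all sums were met. A UMI, or unique molecular identifier, is a tag that lets copies of the same captured mRNA molecule be counted as 1. All 19096 cells received a cluster, and 0 of 252240 pairs of gene and cluster differed from the deposited averages. Cluster 14 held 446 of the 19096 cells, or 2.34% (exact binomial 95% interval 2.13 to 2.56%). It held 210 of 9939 cells (2.11%, 1.84 to 2.42%) in replicate 1 and 236 of 9157 cells (2.58%, 2.26 to 2.92%) in replicate 2.

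The cells came from the longissimus muscle of 1 Holstein bull calf, 2 weeks old, were released with pronase and grown for 1 week in DMEM with fetal bovine serum. There was no treatment or genotype group. Single-cell libraries were made with the 10x Genomics 3′ v3 kit, which reads the 3′ ends of mRNAs. Both libraries were prepared from the same cells of the same animal, so the spread between them is technical and says nothing about other calves. The libraries held 145631299 and 137818568 UMIs, of which 630939 and 745794 were in cluster 14. In all, 27 barcodes occurred in both libraries, and 1 cell of cluster 14 carried such a barcode.

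Satellite cells are the stem cells of skeletal muscle. In culture they become activated, divide as myoblasts that express MYOD1 and MYF5, and can leave the cell cycle, switch on MYOG and build the contractile apparatus. S100A4 is a small calcium-binding protein that interacts with non-muscle myosin and is widely used as a marker of fibroblasts and motile cells, and ACTA1 is the alpha-actin of skeletal muscle thin filaments.

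The cells of cluster 14 were shallow. They held from 1010 to 10800 UMIs each, with a median of 2513.5 (2413.5 in replicate 1 and 2559 in replicate 2), against 14889 over all cells. The quartiles were 1726.75 and 4046. Only clusters 15, 7 and 13 were shallower, with medians of 647, 1389 and 1631 UMIs, cluster 10 followed with 5398.5, and the remaining clusters had medians from 12929 to 23011. A cell of cluster 14 had a UMI in a median of 1191 genes, against 3278 to 4530 in the clusters deeper than cluster 10. When every cell was thinned to 1000 UMIs this difference went away: the median was 613.5 genes in cluster 14, with 0 cells left out, and between 597.5 and 689 in the clusters from 1 to 13, for which 290 cells of cluster 7 and 92 of cluster 13 were too shallow to be used. Of the 317 cells of cluster 15, 294 were too shallow. The part of depth in the differences in gene levels given here was not tested.

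**Figure D1:**
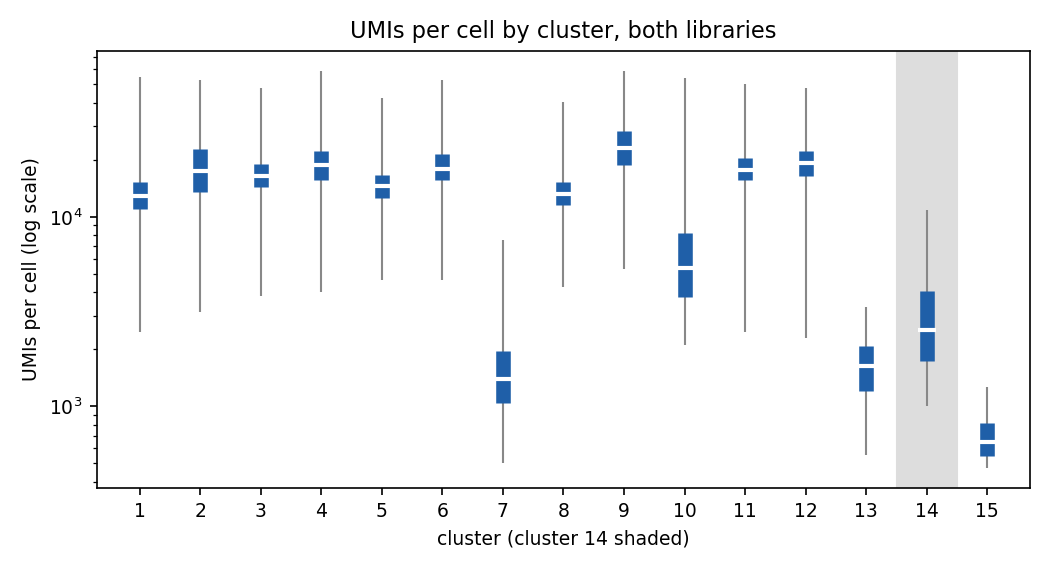
UMIs per cell in each of the 15 clusters over both libraries, on a log axis: grey lines run from the lowest to the highest cell, blue boxes between the quartiles, and the white bar is the median. Cluster 14, shaded, has a median of 2513.5 UMIs, above clusters 15, 7 and 13 and below the rest.

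The clusters were formed from these same genes in these same cells, so differences between cluster 14 and the remaining cells are described here without a test. Levels are UMIs per 10000 UMIs of the cells concerned, summed within a library, and a log2 ratio is the level in cluster 14 over that in all other cells of the same library. A gene is called higher or lower when it differed at least 2-fold in the same direction in both libraries. Among 5290 genes with a level of at least 0.2 over all cells, 5 were higher (0.0945%) and 94 were lower (1.78%). A gene at this minimum corresponds to 12.6 and 14.9 UMIs in cluster 14 of replicates 1 and 2. Replicate 1 alone gave 11 higher and 324 lower genes and replicate 2 alone gave 6 and 278, so the requirement of both libraries decides these counts. The median log2 ratio over the 5290 genes was -0.14. Across genes the log2 ratios of the libraries had a Pearson correlation of 0.61 (5289 genes, which are not independent replicates), against 0.91 to 0.99 for clusters 1 to 12, 0.76 for cluster 13 and 0.21 for cluster 15. Cluster 14 had the highest level of the 15 clusters for 264 genes (4.99%) and the lowest for 595 (11.2%).

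**Figure D2:**
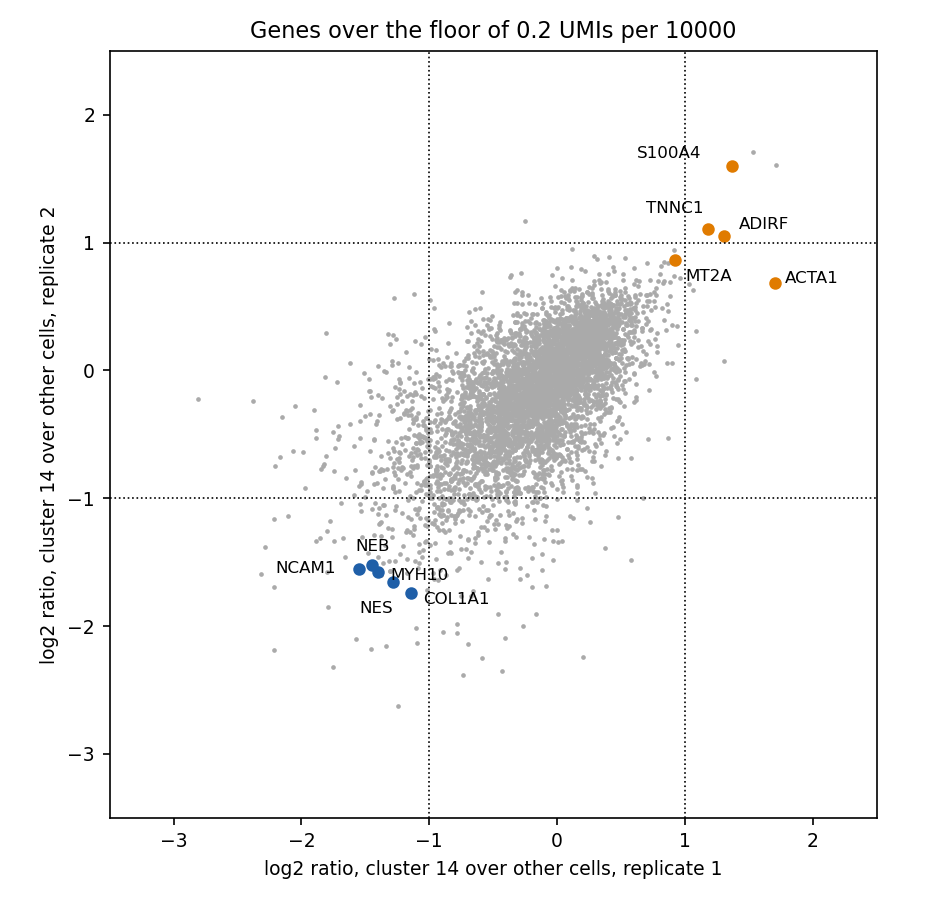
Log2 ratio of cluster 14 over all other cells for each gene at or over 0.2 UMIs per 10000 (grey), replicate 1 on the horizontal and replicate 2 on the vertical axis, with dotted lines at 2-fold and named genes in orange (higher) and blue (lower). S100A4, TNNC1 and ADIRF lie beyond 2-fold higher in both libraries, ACTA1 in replicate 1 only and MT2A in neither, and NCAM1, NEB, MYH10, COL1A1 and NES lie beyond 2-fold lower in both.

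S100A4 was the most abundant of the 5 higher genes. It had 1198 UMIs in cluster 14 of replicate 1 and 1609 in replicate 2, or 18.99 and 21.57 UMIs per 10000, against 7.33 and 7.12 in all other cells. The log2 ratios were 1.37 and 1.60. Cluster 14 stood above every other cluster in both libraries, followed by cluster 8 with 14.2 and 13.6 and cluster 1 with 12.3 and 12.1, while cluster 13 was lowest with 2.60 and 2.13.

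These sums are the averages from which the cells were recovered, so they are no check of the name S100A4-high. Among the cells the level was uneven. S100A4 had a UMI in 319 of the 446 cells (71.5%) and none in 127. After thinning to 1000 UMIs, 53.1% of cells had an S100A4 UMI (53.8% in replicate 1 and 52.5% in replicate 2), close to 53.3% in cluster 8 and 51.2% in cluster 1, and above 19.2% in cluster 10, where the unthinned share was 55.9%. No cell type in this culture is known to lack S100A4, so the share of free RNA cannot be read off. The cells with 5 or more S100A4 UMIs after thinning made up 12.8% of cluster 14, 8.38% of cluster 8 and 7.34% of cluster 1. The variance of the thinned counts was 7.56 times their mean in cluster 14, against 2.93 in cluster 8 and 3.54 in cluster 1. A tail of cells therefore carried much of the signal: the top 10 cells held 566 of 2807 UMIs (20.2%) and the top 45 held 57.6%.

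**Figure D3:**
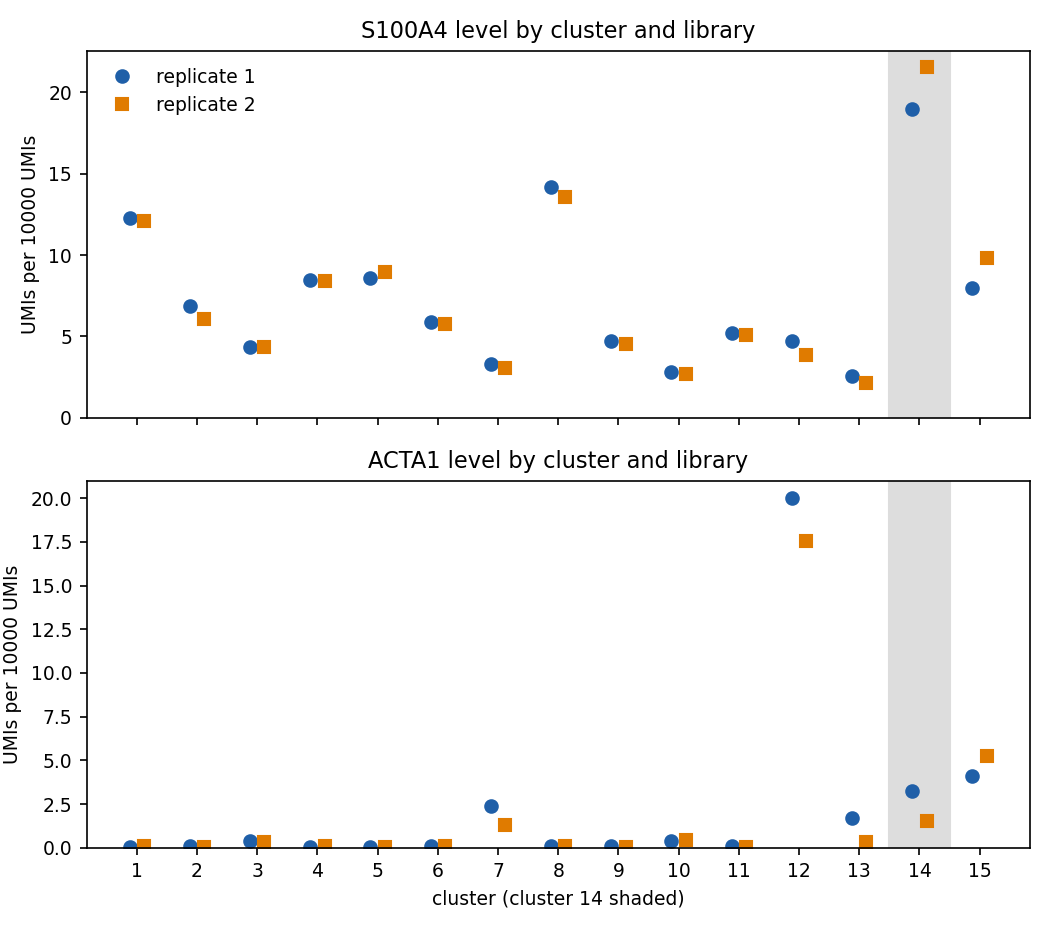
Level of S100A4 and ACTA1 in each of the 15 clusters, in UMIs per 10000, with 1 point per library. Cluster 14 is highest for S100A4 at 18.99 and 21.57, and for ACTA1 its 3.27 and 1.52 lie far below cluster 12 at a mean of 18.8.

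ACTA1 was less of a property of the cluster. It had 206 UMIs in replicate 1 and 113 in replicate 2, or 3.27 and 1.52 UMIs per 10000, against 1.00 and 0.942 in all other cells, with log2 ratios of 1.70 and 0.69. Cluster 12 was far higher, with 18.8 ± 1.74 (SD, n = 2 libraries), and cluster 15 had 4.09 and 5.24. Cluster 14 came after these, ahead of cluster 7 with 2.36 and 1.28, and the values of clusters 14 and 7 overlapped between libraries. Only 44 of the 446 cells (9.87%), 23 and 21 by library, had an ACTA1 UMI, and the top 10 cells held 244 of its 319 UMIs (76.5%). After thinning, 6.73% of the cells had an ACTA1 UMI (8.57 and 5.08% by library), against 48.2% in cluster 12 and 1.11% in cluster 9, which was high in the fibro-adipogenic gene PDGFRA and is taken here as a type that should lack ACTA1. Its median depth was 23011 UMIs and its unthinned share was 16.02%.

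Summed over the cells with ACTA1, other contractile genes were high as well, and 17 of the 44 cells carried most of this. MYLPF, the regulatory light chain of fast myosin, stood at 64.5 UMIs per 10000 in the 44 cells with an ACTA1 UMI and at 3.68 in the 402 without. TNNC1, the calcium-binding troponin of slow and cardiac muscle, stood at 17.4 and 0.753, and MYOG, the regulator of terminal differentiation, at 7.42 and 0.990. S100A4 went the other way, at 9.81 and 21.7. The 17 cells are those that also best fitted cluster 12 with the listed genes left out of the fit, as described further on. They held 283 of the 319 ACTA1 UMIs and had MYLPF at 162.8, TNNC1 at 46.1 and MYOG at 15.2, whereas the other 27 cells with ACTA1 had 9.93, 1.404 and 3.11 and S100A4 at 13.3. The cells with ACTA1 were somewhat deeper, with a median of 2956 UMIs against 2457.5, and the part of depth in these differences was not tested.

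The other higher genes were TNNC1, ADIRF and a pair of genes without a symbol in the deposited feature list. TNNC1 reached 2.71 and 2.55 UMIs per 10000 against 1.196 and 1.186 elsewhere, with log2 ratios of 1.18 and 1.10, and was higher still in clusters 12 and 15. The top 10 cells held 54.6% of its UMIs. Without the 21 members that best fitted cluster 12 when the listed genes were left out of the fit, described further on, TNNC1 stood at 0.789 and 0.713, against 0.624 and 0.593 in the other cells when cluster 12 was left out of them too. The log2 ratios were then 0.34 and 0.27, under 2-fold, and -0.60 and -0.73 with cluster 12 kept among the other cells. ADIRF, a gene named for its part in adipogenesis, was highest in cluster 14 with 4.99 and 4.89 against 2.02 and 2.36, with log2 ratios of 1.31 and 1.05, and was seen in 218 cells. ENSBTAG00000047229 stood at 2.55 and 2.33 against 0.778 and 0.766, with log2 ratios of 1.71 and 1.61. ENSBTAG00000054808 stood at 0.793 and 1.01 against 0.274 and 0.308, with log2 ratios of 1.53 and 1.71, from 125 UMIs in 55 cells.

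Below 2-fold, the genes next in order included MT2A, a metallothionein that binds zinc and copper, CRYAB, a small heat shock protein of muscle, and CAV1, the coat protein of caveolae. MT2A had 4.80 and 4.96 UMIs per 10000 against 2.53 and 2.73, and only cluster 11 was higher. CRYAB had 6.10 and 5.93 against 3.41 and 3.30, CAV1 had 2.92 and 2.79 against 1.76 and 1.71, and the muscle enolase ENO3 had 1.35 and 1.33 against 0.766 and 0.753. CD9, a tetraspanin of the cell surface, had 2.38 and 2.17 against 1.36 and 1.29, and ANXA1, a calcium-dependent membrane-binding annexin, had 11.1 and 10.1 against 6.43 and 6.25. Each of these 6 genes was higher in cluster 14 in both libraries without reaching 2-fold, and cluster 14 was the highest of the 15 clusters for CAV1 and ANXA1.

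Of the 94 lower genes, 21 had a level of at least 1 UMI per 10000 over all cells and 73 were rarer, and cluster 14 was the lowest of all clusters for 44. NCAM1, a cell adhesion molecule of muscle precursors, had 1.474 and 1.502 UMIs per 10000 against 4.31 and 4.42, with log2 ratios of -1.55 and -1.56. NEB, the giant thin-filament protein nebulin, had 0.903 and 0.818 against 2.46 and 2.36, and MYH10, a non-muscle myosin heavy chain, had 0.888 and 0.764 against 2.35 and 2.28. COL1A1, a chain of type I collagen, had 15.1 and 9.99 against 33.3 and 33.5, and these library values lay further apart than those of NCAM1. NES, the intermediate filament nestin of precursor cells, had 6.13 and 4.65 against 14.97 and 14.63. Other lower genes with few UMIs in cluster 14 were the endocytic collagen receptor MRC2 with 19 and 23 UMIs and log2 ratios of -1.40 and -1.46, and the linker histone HIST1H1E with 19 and 26 UMIs and log2 ratios of -1.66 and -1.46. For NEB and for HIST1H1E cluster 14 ranked 10 of the 15 clusters from the highest, so other clusters were lower still. AUTS2 had 0 and 3 UMIs and RREB1, a zinc finger transcription factor, 3 and 4 UMIs, and no fold is given for either.

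Gene lists show the same picture in groups, and each list's median log2 ratio is to be read beside the -0.14 of all genes. Over all genes, 26.4% were higher and 49.5% lower in both libraries by any amount. Small calcium-binding proteins make up the S100 family. With S100A4 counted, the family summed to 92.1 and 92.6 UMIs per 10000 in cluster 14, the highest of the 15 clusters. The family stood at 64.0 and 62.5 elsewhere. Its median was 0.49, and 7 of its 9 measured genes were higher in both libraries, among them S100A10 (14.76 and 13.45 against 10.2 and 9.89) and S100A11 (41.8 and 43.0 against 32.5 and 31.5), while S100A4 alone passed 2-fold. S100A16 was the only member lower in both, with 6.39 and 6.10 against 6.97 and 7.11. S100A4 made up 18.99 and 21.57 of the family sum in cluster 14, so the rank partly restates this gene. In cluster 12 the family summed to 78.0 and 72.1, with S100A4 at 4.73 and 3.84. The rank without S100A4 was not tested. Nuclear genes of the respiratory chain, which make ATP in mitochondria, had a median of 0.30 with 43 of 48 higher in both libraries, and summed to 244 and 245 against 200 and 202. Proteasome genes, which encode the machinery of protein breakdown, had a median of 0.26 with 25 of 32 higher in both. Cytosolic ribosomal protein genes had a median of 0.16 with 72 of 81 higher in both, and summed to 2945 and 2900 against 2646 and 2632, but to 2528 in the shallowest 149 members, below the other cells. In none of these 3 lists did a gene reach 2-fold.

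The collagens, the fibrous scaffold of the extracellular matrix, were lower as a group. They summed to 70.9 and 59.7 UMIs per 10000 in cluster 14 against 129 and 133 in all other cells, and the mean of 65.3 was the lowest of the 15 clusters, next to 70.7 in cluster 12, whose libraries gave 71.7 and 69.8. All 11 measured collagen genes were lower in both libraries, 6 of them at least 2-fold, with a median of -1.21. COL5A1, which starts collagen fibrils, had 3.34 and 3.33 against 7.44 and 7.98, and COL11A1, another fibril-forming chain, had 0.380 and 0.416 against 0.990 and 1.02. Matrix glycoproteins had a median of -0.84 with 20 of 21 genes lower in both libraries, and 1 at least 2-fold. YAP and TGF-beta targets had a median of -0.77 with 8 of 8 lower. A list of long transcripts, only in part of chromatin and transcription genes, had a median of -0.78 with 22 of 22 lower and 2 at least 2-fold. These 2 were MACF1 and UTRN, which encode cytoskeletal linkers, and AHNAK, a large scaffold protein, was the most abundant of the list.

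Cell cycle genes summed to less in cluster 14 than in the other cells. The S phase list summed to 23.2 and 23.2 UMIs per 10000 against 26.7 and 26.2, and the list of G2/M genes, which act at the entry into mitosis, to 52.3 and 54.9 against 70.8 and 69.2. Their medians were -0.29 and -0.48, with 1 of 32 and 3 of 48 genes at least 2-fold lower. In the shallowest 149 members, of 1010 to 1889 UMIs, G2/M genes summed to 73.5 and S phase genes to 27.0, not below the other cells, against 47.3 and 22.2 in the deepest 148. Muscle structure genes were mixed: they summed to 87.4 and 83.6 against 77.6 and 77.5, with a median of 0.06, and of 18 measured genes 9 were higher and 8 lower in both libraries. The higher sum came from few cells: it was 310 in the 44 cells with ACTA1 and 56.9 in the other 402, and the median cell stood at 44.7. Without the 21 members that fitted cluster 12 the sum was 54.9 and 60.2, against 62.5 and 61.5 in the other cells when cluster 12 was left out of them too. The list median was then -0.045, and -0.67 with cluster 12 kept among the other cells.

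**Figure D4:**
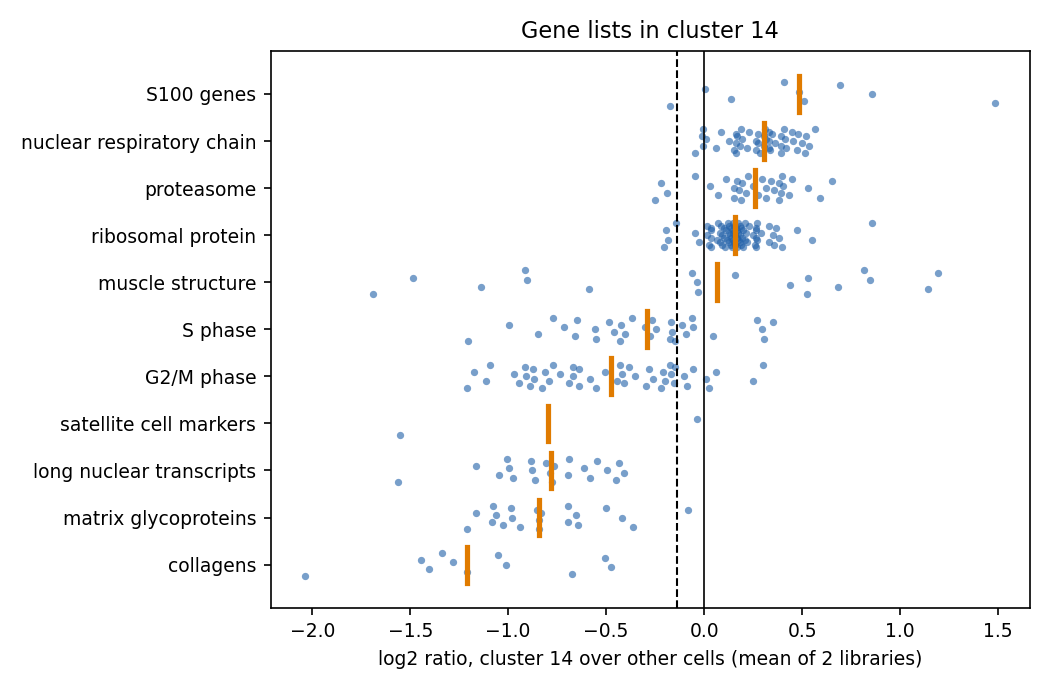
Log2 ratio of cluster 14 over all other cells, as the mean of both libraries, for each gene (blue point) of 11 lists, with the list median as an orange bar and the median of all genes, -0.14, as a dashed line. The S100 genes, at a median of 0.49, lie furthest right and the collagens, at -1.21, furthest left; the satellite cell list has only 2 measured genes.

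Markers of muscle precursors were present at modest levels. MYOD1, a master regulator of the myoblast, had 2.87 and 2.52 UMIs per 10000 against 4.18 and 3.94, MYF5, a related regulator, had 1.33 and 0.925 against 0.978 and 0.922, MYOG had 1.78 and 1.66 against 2.10 and 2.14, and the muscle intermediate filament DES had 4.33 and 3.73 against 4.62 and 4.49. Of the myocyte markers, which include MYOG, 4 were measured. All 4 were lower in both libraries, 2 of them at least 2-fold, with a median log2 ratio of -1.17. MYL1, under the minimum level, was higher, with 25 and 14 UMIs and log2 ratios of 1.32 and 0.30. The whole list summed to a mean of 3.75 per 10000 in cluster 14, against 54.6 in cluster 12, 16.9 in cluster 7 and 14.6 in cluster 3. Clusters 4, 5, 6, 8, 9 and 11 were lower than cluster 14, from 0.530 to 2.74. The satellite cell list summed to 1.90 and 2.00 against 4.80 and 4.91, with NCAM1 its most abundant gene. PAX7, which marks quiescent and early satellite cells, had 0 UMIs in cluster 14. That allows a level of up to 0.0218 per 10000 by the limit of 3 counts, above the 0.00624 in all other cells, so a difference was not detectable at this depth. PAX3 had 0 and 1 UMIs.

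Markers of endothelium, blood and immune cells were at or near 0 UMIs, whereas the smooth muscle, pericyte, glial and fibroblast lists were not. CDH5 and PECAM1, which mark endothelium, and ADIPOQ, which marks fat cells, had 0 UMIs in cluster 14, and FOXD3, SOX10 and LEP had none in any cell. In all other cells CDH5, PECAM1 and ADIPOQ stood at 0.000993, 0.0016 and 0.000106 UMIs per 10000. These levels lie under the 0.0218 that 0 UMIs in cluster 14 allow, so a difference was not detectable at this depth. The 7 endothelial markers summed to 0.0634 and 0.0268 UMIs per 10000 against 0.0331 and 0.0343 elsewhere, with 4 of them at 0 and TEK the most abundant. The 10 immune markers summed to 0.0158 and 0.0536 against 0.0304 and 0.0319, with 6 at 0. Of 6 erythroid symbols 5 were in the matrix and 4 of these were at 0, and their sum was 0 and 0.0134. The 6 glial markers summed to 0.365 and 0.335 against 0.354 and 0.328, nearly all of it S100B, with 4 at 0. Fibro-adipogenic markers summed to 0.349 and 0.188 against 0.445 and 0.430, with PDGFRA at 14 and 9 UMIs. The 6 smooth muscle markers summed to 7.02 and 6.30 against 7.79 and 7.74, most of it ACTA2, an actin of smooth muscle and myofibroblasts, with 390 and 391 UMIs. The 7 pericyte markers summed to 0.602 and 0.496 against 0.596 and 0.618, with NOTCH3 the most abundant. Whether cells of these types were present was not tested. The fibroblast list, which includes S100A4, was lower in all, at 90.4 and 81.7 against 134 and 136. COL1A2 was its most abundant gene in cluster 14, at 24.7.

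Compared with the other shallow clusters 7, 13 and 15 summed, cluster 14 was higher for 201 genes (3.8%) and lower for 994 (18.8%), and the median log2 ratio over all genes was -0.27. S100A4 stood at 3.34 and 3.34 UMIs per 10000 in those clusters summed. Cluster 7 held most of their UMIs, 896608 and 1219037, against 95317 and 124042 in cluster 15, so this level says little about cluster 15. After thinning, 25.8% of cells in cluster 7 and 17.3% in cluster 13 had an S100A4 UMI. It was 43.5% of the 23 usable cells of cluster 15, against 53.1% in cluster 14. TXN, which encodes the redox protein thioredoxin, had 16.1 and 14.8 in cluster 14 against 4.55 and 5.03, and S100A10 had 14.76 and 13.45 against 5.02 and 4.88. Collagens summed to 424 and 487 there, and their mean was 640 in cluster 7, 148 in cluster 13 and 87.8 in cluster 15, against 65.3 in cluster 14. Ribosomal protein genes stood at 924 in cluster 7, 3149 in cluster 13 and 2276 in cluster 15, against 2923 in cluster 14, so the shallow clusters differed from each other as well. Across genes, the profile of cluster 14 correlated at 0.974 with all other cells summed, 0.967 with cluster 6 and 0.961 with cluster 5. For the shallow clusters it was 0.955 with cluster 15, 0.877 with cluster 13 and 0.737 with cluster 7. These values are over the same genes, cells of 1 culture, and describe the profiles only.

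Many members fitted the profile of another cluster better than their own. Each cell was scored against the 15 cluster profiles built from the other library. Of the 446 cells, 158 (35.4%; 37.1% in replicate 1 and 33.9% in replicate 2) fitted cluster 14 best, 42 fitted cluster 2, 41 cluster 6, 37 cluster 5, 31 cluster 11, 28 cluster 1, 28 cluster 9, 26 cluster 4, 26 cluster 12, 18 cluster 3 and 11 cluster 8. None fitted clusters 7, 10, 13 or 15. With all cells thinned to 1000 UMIs, 35.9% of cluster 14 fitted its own profile, against 70.7 to 98.7% of clusters 1 to 12, 15.3% of cluster 13 and 0% of the 23 usable cells of cluster 15. The profiles differed in size: that of cluster 14 rests on 630939 and 745794 UMIs, and only clusters 13 and 15 had fewer. With the larger profiles thinned to the size of that of cluster 14 as well, 223 of its 446 thinned cells fitted it best (50.5 and 49.6% by library), so the share moved with the size of the profiles. It was then 61.7 to 98.7% for clusters 1 to 12 and 43.3% for cluster 13. Conversely, 235 cells of the whole study fitted cluster 14 best, of which 55 were in cluster 15 and 16 in cluster 1.

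So that the listed genes did not decide which profile a member fitted, the fit was repeated with all 741 genes of the lists left out. The listed genes still took part in forming cluster 14. Gaps between members and the cells of the matched clusters are therefore described only. In the repeated fit 116 members fitted cluster 14, 104 fitted clusters 1, 5 and 8, 77 clusters 2 and 4, 73 clusters 6 and 11, 32 cluster 9, 23 cluster 3 and 21 cluster 12. In cells of known cluster thinned to 1000 UMIs, the same fit returned 80.6 to 93.1% to their own group, and 25.1% for cluster 14. With profiles of equal size 221 members fitted cluster 14, 57 fitted clusters 1, 5 and 8 and 22 fitted cluster 12, so the numbers of cells depend on profile size. The 22 cells held 286 of the ACTA1 UMIs. The 57 cells held 596 of the S100A4 UMIs, at 37.6 UMIs per 10000, and the 221 cells held 1823, at 24.5. The listed genes followed the fitted profile in some groups and not in others. The 21 members that fitted cluster 12 held 283 of the 319 ACTA1 UMIs, at 51.8 and 32.4 UMIs per 10000 by library, and their muscle structure genes summed to 633 and 631, against 419 and 413 in the cells of cluster 12. The 77 members that fitted clusters 2 and 4 had G2/M genes at 135 and 131, against 152 and 147 in the cells of those clusters. Members that fitted clusters 6 and 11 had S phase genes at 32.7 and 31.9, below the 45.7 and 43.8 of those clusters and near the 33.0 and 33.5 of the members that fitted clusters 2 and 4. MYLPF stood at 4.98 and 5.50 in those that fitted clusters 2 and 4, against 1.76 and 1.87. With both libraries summed, PDGFRA stood at 0.520 in the members that fitted cluster 9, against 1.58 in its cells. PDGFRA had only 14 and 9 UMIs in the whole of cluster 14, so its value in these 32 members rests on few UMIs.

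S100A4 was highest in the members that fitted clusters 1, 5 and 8 and lowest in those that fitted clusters 12 and 3. The 104 members that fitted clusters 1, 5 and 8 held 1211 of the 2807 S100A4 UMIs, at 36.4 and 43.2 UMIs per 10000. The cells of those clusters had 11.5 and 11.4, which gives log2 ratios of 1.66 and 1.93. Cluster 14 was formed with S100A4 among the genes, so this gap partly restates membership and is no independent check. With profiles of equal size the members that fitted clusters 1, 5 and 8 held 596 of these UMIs, so the share depends on profile size. The 116 members that fitted cluster 14 had 19.9 and 28.6. The 73 members that fitted clusters 6 and 11 had 8.74 and 12.4 against 5.69 and 5.53, and the 21 that fitted cluster 12 had 3.66 and 2.62 against 4.73 and 3.84. Members that fitted clusters 2 and 4 had 8.50 and 10.2 against 7.63 and 7.15. Those that fitted cluster 9 had 7.39 and 9.45 against 4.75 and 4.56, and those that fitted cluster 3 had 1.37 and 4.32 against 4.32 and 4.34. ADIRF was likewise high in the members that fitted clusters 1, 5 and 8, at 7.48 and 7.40 against 2.46 and 2.98. Collagens were lower in the members than in the cells of the matched clusters in both libraries for every group but the 23 cells that fitted cluster 3. There replicate 2 had 90.3 against 87.3. Collagens were also among the genes that formed the clusters, so this gap is no independent check either. In the members that fitted clusters 1, 5 and 8 they summed to 112 and 96.8 against 184 and 185.

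**Figure D5:**
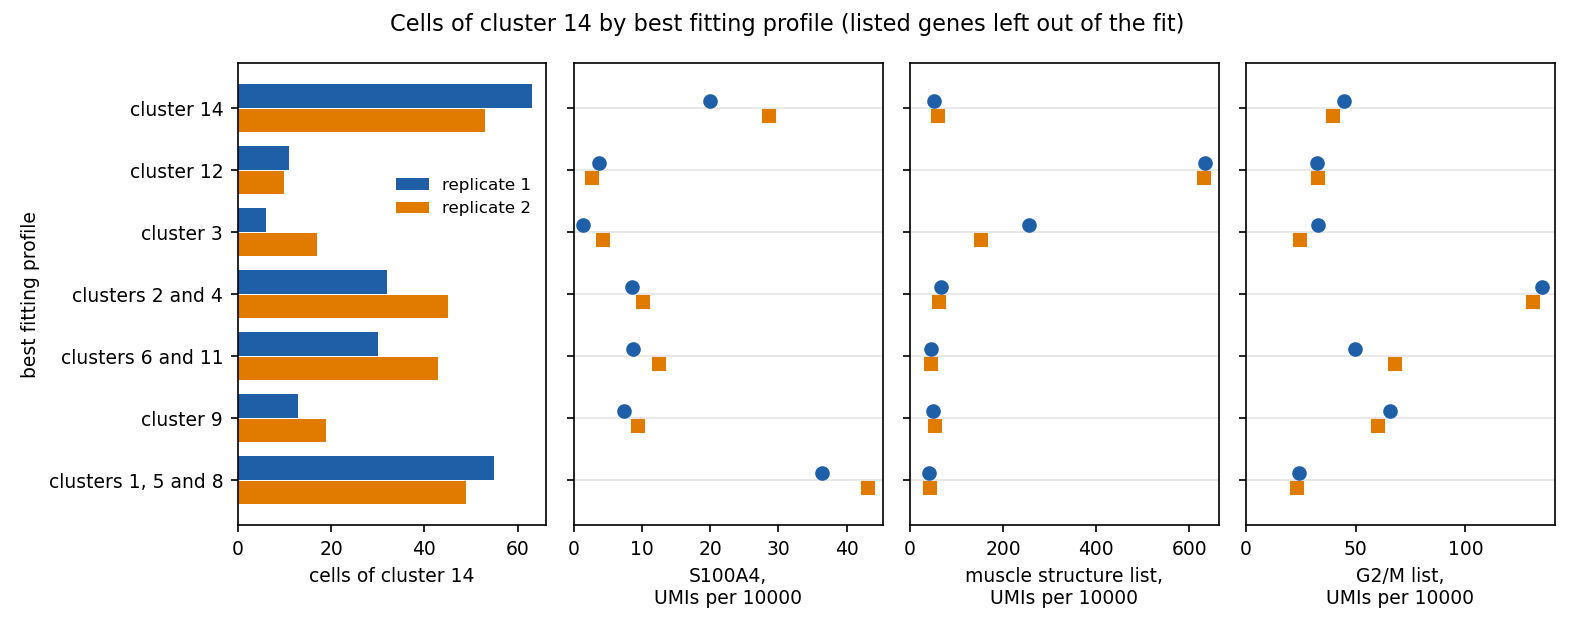
Cells of cluster 14 by the profile they fit best when the listed genes are left out of the fit: number of cells, and level of S100A4, the muscle structure list and the G2/M list in UMIs per 10000, by library. Muscle genes peak at 633 and 631 in the members that fit cluster 12, G2/M genes at 135 and 131 in those that fit clusters 2 and 4, and S100A4 at 36.4 and 43.2 in those that fit clusters 1, 5 and 8.

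With the 21 members that fitted cluster 12 and cluster 12 itself left out, the mean log2 ratio of ACTA1 went from 1.195 to 0.80, and with only the members left out to -1.85. With the 104 members that fitted clusters 1, 5 and 8 and those clusters left out, S100A4 stood at 13.3 and 16.2 against 5.82 and 5.55, with log2 ratios of 1.19 and 1.54. With only the members left out, the ratios were 0.85 and 1.19, under 2-fold in replicate 1. ADIRF had log2 ratios of 1.17 and 1.003 with both left out, and of 1.05 and 0.86 with only the members left out.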

How the data were processed

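Single-cell RNA-seq of 2 libraries was analysed. Per the submitters' processing notes and methods, the authors used Cell Ranger 3.0.2 with the bovine build ARS-UCD1.2, combined the libraries after thinning reads to equal mapped depth per cell, and clustered the cells. The deposited matrix holds UMI counts per gene and cell, not normalized, and was used as deposited. The deposited cluster averages are a signal per gene and cluster, scaled by the authors to the median UMI count of all cells, and were used only to recover each cell's cluster, in 30 rounds of elimination. The largest distance of a converted average from a whole UMI sum was 0.000110. The authors' fold changes and p-values, in the same tables, were not used.

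UMIs were summed per library over cluster 14 and over all other cells. No test was run, because clusters were formed from these cells. Fits used the multinomial likelihood. Lists with more than 1 Ensembl gene per symbol count each. Genes are named by the deposited feature list, and coordinates and sequences were not used here. Mitochondrially encoded symbols gave 0 matches. Binomial intervals and the limit of 3 counts cover counting error only, and duplicate molecules are collapsed by UMI.

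Members, lists and comparisons were chosen with earlier results of these data known. The genes named were taken from S100A4 and ACTA1, the 15 highest and 15 lowest by the smaller ratio of the libraries, the 20 most abundant, the top 10 against clusters 7, 13 and 15, the top 5 under the minimum level, the study's markers and list members. Not every gene of these sets is named, and ANXA1 was named from outside them. Genes picked out for the fitted groups were chosen after their values were seen. The fit without listed genes and the profiles of equal size were added after seeing the data. The steps were tested on simulated data. No cell was removed. Scrublet's automatic threshold called 0 and 1 cells, so the top 8% of scores per library were tried as doublets, which held 31 cells of cluster 14 (6.95%). Tools were Python 3.11.15, numpy 2.4.6, pandas 2.3.3, scipy 1.17.1, scanpy 1.11.5 and, for TMM scaling, edgeR 4.0.16 under R 4.3.3.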

Additional observations from a re-analysis of the deposited data

How the results depend on the processing

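The count of genes at least 2-fold higher, 5, was 4 or 5 under the settings not named here, and the count of lower genes, 94, was 74 to 141. They moved further as follows, higher count first: against clusters 7, 13 and 15 alone, 201 and 994; with the best fitting profile as membership, 14 and 299; with no minimum level, 153 and 284; with a minimum of 1 UMI per 10000, 3 and 21; at 1.5-fold, 35 and 498. With the other clusters weighted equally the lower count was 186, and without the members that fit clusters 1, 5 and 8 the higher count was 3. With 1 library at a time they were 6 to 11 and 278 to 324. The S100A4 log2 ratio, 1.49, was 2.60 against clusters 7, 13 and 15, 2.19 by best fitting profile and 1.02 without the members that fit clusters 1, 5 and 8. The best fit as membership scored cells on all genes, S100A4, ACTA1 and the listed genes among them. Values by best fitting profile therefore partly restate how the cells were picked. The ACTA1 ratio, 1.195, was 0.17 with equal weights and 0.36 against clusters 7, 13 and 15, and turned to -1.43 by best fitting profile and to -1.85 without the members that fit cluster 12. Thinning to 500 UMIs gave a median of 361 genes per cell in place of 613.5.

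Some list medians changed sign: myoblast markers to 0.016 without the members that fit clusters 1, 5 and 8; muscle structure to -1.02 by best fitting profile, -0.67 without the members that fit cluster 12 and -0.045 without these and cluster 12; non-muscle actin cytoskeleton to 0.029 against clusters 7, 13 and 15; glycolysis to 0.31 there, 0.030 with TMM and 0.013 without ribosomal genes in the totals. With TMM and without ribosomal genes, immediate early genes went to 0.032 and 0.015 and heat shock proteins to 0.016 and 0.00010, and with TMM lysosome genes went to 0.0079. The list of cytokines and chemokines, with 4 measured genes and library medians of -0.14 and 0.072, went from 0.075 to -0.82 against clusters 7, 13 and 15. Among the 4 is GNG11, a G protein subunit and neither a cytokine nor a chemokine, which was the most abundant of the list in cluster 14. Except where a setting leaves out the cells that hold the UMIs, the cause was not tested. The settings that leave out members by their fit, and those without the cells whose barcodes occur in both libraries, and the profiles of equal size, were chosen after seeing the data. Ratios were taken within each library. No paired analysis was possible because no test was run and the labels give 1 group.

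Cluster 14 holds 0.486% of the UMIs, the libraries are of 1 animal, and a low gene rests on few UMIs. Fewer cells of a kind and less RNA per cell cannot be told apart in sums.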

Other observations

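The 20 most abundant genes of cluster 14 took 13.3% of its UMIs and the same genes 12.7% of those of all other cells, and 14 of them encode ribosomal proteins. RPS12, a protein of the small ribosomal subunit, led with 93.0 and 89.4 UMIs per 10000 against 103 and 98.7, followed by RPLP0, of the ribosomal stalk, with 84.3 and 81.1 against 80.4 and 77.4. VIM, the intermediate filament of mesenchymal cells, had 77.3 and 79.7 against 84.6 and 83.5, and the cytoskeletal actin ACTB had 68.93 and 71.05 against 66.8 and 64.7.

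Among genes under the minimum level, 394 had at least 10 UMIs in cluster 14 of each library, and 6 of these were at least 2-fold higher in both and 0 at least 2-fold lower. The minimum of 10 UMIs in cluster 14 favours genes that are high there, so these counts describe no direction. FGF2, a fibroblast growth factor that stimulates satellite cells, had 13 and 15 UMIs, or 0.206 and 0.201 per 10000 against 0.0423 and 0.0446. IFITM3, an interferon-induced membrane protein, had 27 and 28 UMIs, or 0.428 and 0.375 against 0.132 and 0.120. MYOZ2, a protein of the Z-disc, had 17 and 15 UMIs, or 0.269 and 0.201 against 0.0777 and 0.0820.

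By depth, the cells of cluster 14 were divided into 149, 149 and 148 cells with median UMI counts of 1496, 2519 and 5076.5. From the shallowest to the deepest, ribosomal protein genes summed to 2528, 2760 and 3114 UMIs per 10000 and G2/M genes to 73.5, 55.0 and 47.3. S100A4 stood at 14.9, 24.9 and 19.8 and the collagens at 68.3, 77.3 and 57.7, without a steady order. Respiratory chain genes hardly moved, at 242, 246 and 245. The share of cells fitting cluster 14 best was 30.9, 26.2 and 49.3%.

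Within cluster 14, a comparison of the libraries across the 3615 genes that had 20 or more UMIs in both gave a chi-square that was 1.54 times its degrees of freedom, where counting error alone gives a ratio near 1. The log2 ratios of replicate 1 over replicate 2 in cluster 14 and in all other cells correlated at 0.31 across these genes, which are not independent.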
